A study of Caenorhabditis elegans with 82 samples.

Results

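The lipl genes lipl-1 to lipl-8 encode the acid lipases of Caenorhabditis elegans, and their transcript levels were followed in worms fed natural gut bacteria or a laboratory food. All 8 genes with a symbol from lipl-1 to lipl-8 were taken by name, and all 8 were present among the 46748 genes of the count table. Membership rested on the symbols alone, but the family was chosen with earlier results of these data known.

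LIPL proteins are relatives of the human lysosomal acid lipase LIPA and of gastric lipase, enzymes that release fatty acids from triglycerides and cholesteryl esters at acid pH. In the worm, fat is stored mainly in the intestine, and lipases in the lysosome break it down after lipid droplets are delivered there, a process called lipophagy. Transcription of several lipl genes is known to respond to fasting through the activator HLH-30, the worm relative of TFEB, and the repressor MXL-3. Overexpression of lipl-4 is known to lengthen worm life through a lysosomal lipid signal that the lipid-binding protein LBP-8 carries to the nucleus.

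Whole N2 worms, the standard laboratory wild type with no transgene or mutation, were grown at 20 °C on a medium labelled mNGM. RNA was sequenced at 6 stages: the larval stages L2, L3 and L4 (labelled 6 h, 24 h and 48 h) and adults named Ad1, Ad3 and Ad7 (labelled 72 h, 3 days and 7 days). The food was Escherichia coli OP50, the usual laboratory bacterium and the control here, the Ochrobactrum isolate MYb71, an isolate labelled MYb65, or Mix. Each library was made from a pool of synchronized hermaphrodites kept for generations on the same food, with larvae washed off the plates and adults picked by hand. Of 82 libraries, 80 were used, in 24 groups of stage and food with 2 to 4 libraries each (1 group of 2, 14 of 3 and 9 of 4), and OP50, shared by every comparison with the control, had 3 libraries at each stage.

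Depth ranged from 10513060 to 74552875 counts per library, with a median of 21317777. Depth was not even over foods. Replicate 1 of OP50 held 74552875 counts at L3, 62431452 at Ad1, 54792826 at Ad3, 47740561 at L4 and 45200110 at L2. No other library held more than 30304949. Each of these deep controls also had the lowest lipl-5 level of its stage, whereas lipl-4 at L2 and Ad3 was lowest in another library. The part of depth in the food differences was not tested. Across genes, 79 of the 82 libraries correlated best with their own labelled stage. The libraries labelled OP50 L2 replicate 3 and OP50 L3 replicate 3 did not (r = 0.781 with L2 against 0.99 with Ad3, and 0.737 with L3 against 0.987 with Ad7), and these were left out, with their effect given where it changed a result. The other exception, OP50 Ad1 replicate 2, stood as close to Ad3 (0.98) as to Ad1 (0.979) and was kept. At L4 the libraries OP50 replicates 1 and 2 correlated with their stage at 0.941 and 0.955, below replicate 3 at 0.99. Markers of the intestine, the main fat-storing tissue, were above 0 in all 80 libraries for 10 of 10 genes. In whole-worm RNA, fewer cells of a type and less RNA per cell cannot be told apart.

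In genome build WBcel235, 7 of the 8 genes lie on chromosome V and lipl-7 lies on chromosome IV, from 10239278 to 10241823 on the minus strand with 6 exon blocks. The gene lipl-4 (WBGene00019376) spans V from 6550171 to 6552186 on the plus strand in 5 exon blocks, and 202 of its 1652 exonic bases are shared with the opposite-strand noncoding RNA K04A8.15 and a tRNA, which had 28 and 11 counts in all. The gene lipl-5 (WBGene00022642) spans V from 385746 to 387740 on the plus strand in 6 exon blocks, 133.9 kb from lipl-3 (WBGene00020016, V from 521595 to 524218, minus strand), which shares 23 exonic bases with the nearly silent receptor gene srw-107 (4 counts in all). The remaining members overlap no annotated gene: lipl-1 (WBGene00010062) lies at 12919986 to 12921692 and lipl-2 (WBGene00009773) at 9791567 to 9793241, both on the plus strand, and lipl-6 (WBGene00021963) at 6931475 to 6934312 and lipl-8 (WBGene00013050) at 14745684 to 14748708, both on the minus strand of chromosome V.

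Levels are given as CPM, the counts of a gene per 1e+06 counts of the scaled library total. On OP50, levels per kilobase of exon over the 18 libraries ranked lipl-5 first, with a median of 56.4 CPM per kb, then lipl-1 at 28.1, lipl-7 at 14.4 and lipl-2 at 9.70. Below these stood lipl-3 at 1.81, lipl-6 at 0.704, lipl-4 at 0.325 and lipl-8 at 0. The ranges of every pair of neighbours in this order overlapped, so the order of neighbours is not resolved beyond the spread over stages and libraries.

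With all stages in a single model, lipl-1, lipl-2, lipl-4 and lipl-5 were higher than on OP50 in worms on MYb71, lipl-2, lipl-4 and lipl-5 on MYb65, and lipl-4 and lipl-5 on Mix. Higher lipl-4 was the greatest change among the members, about 4-fold, and the rise of lipl-5 was about 2.4-fold on each food. A gene is called here when its Benjamini-Hochberg adjusted p from edgeR's quasi-likelihood test is under 0.05. Called higher were 4 of 8 members on MYb71, 3 of 8 on MYb65 and 2 of 8 on Mix, beside 1.76%, 1.8% and 1.13% of the 18372 genes tested, and no member was called lower. The median log2 fold change of the members was 0.62, 0.30 and 0.32, beside -0.03, -0.00 and -0.03 over all genes tested.

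**Figure D1:**
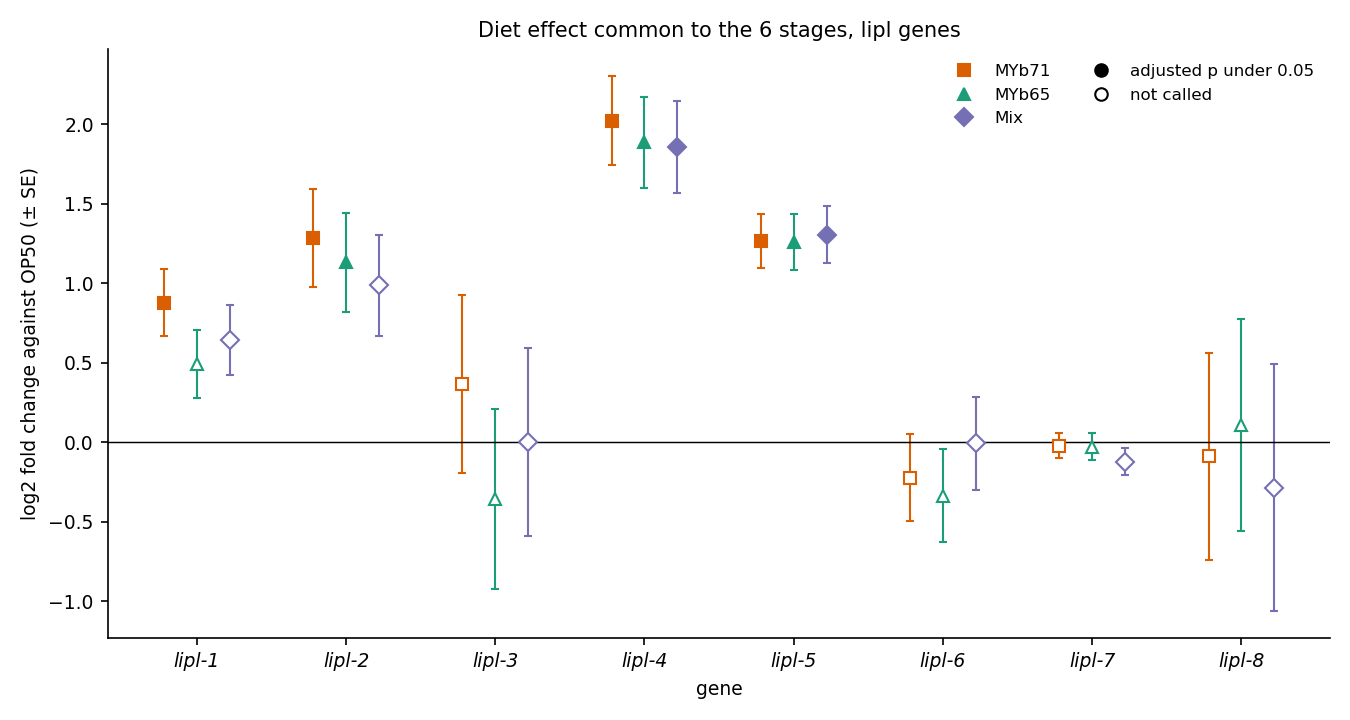
Log2 fold change against OP50 (vertical axis, ± SE) of the 8 lipl genes (horizontal axis) on MYb71, MYb65 and Mix, from the model over 6 stages and 80 libraries; filled symbols are genes with an adjusted p under 0.05. lipl-4 lies near 2 on every food (2.02, 1.89 and 1.86) and lipl-5 near 1.3 (1.27, 1.26 and 1.31), while lipl-6, lipl-7 and lipl-8 lie between -0.34 and 0.11.

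For lipl-4 the log2 fold change was 2.02 on MYb71 (SE 0.28, adjusted p = 7.55e-08), 1.89 on MYb65 (SE 0.29, adjusted p = 9.53e-07) and 1.86 on Mix (SE 0.29, adjusted p = 2.21e-06) by edgeR, or 4.06-fold, 3.70-fold and 3.62-fold. The lipl-5 transcript was 2.41-fold higher on MYb71 (log2 1.27, SE 0.17, adjusted p = 4.85e-08), 2.40-fold on MYb65 (log2 1.26, SE 0.18, adjusted p = 1.37e-07) and 2.47-fold on Mix (log2 1.31, SE 0.18, adjusted p = 1.01e-07). Both genes stayed called on all 3 foods under every alternative run for this model, which included leaving out each replicate number and each stage. Their highest adjusted p values there were 0.00511 for lipl-4 and 0.00263 for lipl-5.

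Calls of lipl-1 and lipl-2 rested on fewer libraries. lipl-1 was 1.84-fold higher on MYb71 (log2 0.88, SE 0.21, edgeR adjusted p = 0.0039), with log2 values of 0.49 on MYb65 (adjusted p = 0.225) and 0.64 on Mix (adjusted p = 0.110). lipl-2 was 2.44-fold higher on MYb71 (log2 1.28, SE 0.31, edgeR adjusted p = 0.0039) and 2.19-fold on MYb65 (log2 1.13, SE 0.31, adjusted p = 0.021), and stood at log2 0.99 on Mix (adjusted p = 0.0794). Without replicate 1 or 2 of every group, neither gene was called on MYb71 (adjusted p = 0.109 to 0.244), and lipl-2 was not called on MYb65 (0.613 and 0.307). Leaving out Ad3 ended the MYb71 call of lipl-1 (0.0611), leaving out L2, L3, L4 or Ad3 ended the MYb65 call of lipl-2 (0.0575 to 0.168), and leaving out Ad7 made lipl-2 called on Mix (0.0492). Without the single library OP50 Ad1 replicate 3, an alternative chosen after seeing the data, both were called on Mix, lipl-1 at 0.79 (adjusted p = 0.0199) and lipl-2 at 1.16 (adjusted p = 0.0215), which raised the count there from 2 to 4, while the share of all genes called on Mix in either direction went from 2.92% to 3.63%. The same pair was called on Mix with the replicate number as a block (0.0266 and 0.0112). At no stage did same-numbered Mix and OP50 libraries deviate together in every pair (r from -0.71 at L4 to 0.493 at Ad1). That block therefore cannot be taken as a pairing of Mix with OP50. A further alternative, also chosen after seeing the data, left out OP50 replicate 3 at L4, Ad1, Ad3 and Ad7. At L2 and L3 the libraries with that number were already left out. There lipl-1 was called on MYb65 as well (0.85, adjusted p = 0.0111).

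The 10 intestine markers had a median log2 fold change of 0.20, 0.17 and 0.22 on MYb71, MYb65 and Mix, and of them only the gut esterase gene ges-1 was called, at 0.37 on MYb71 and 0.36 on MYb65. Summed over the 10 markers, the OP50 L2 libraries held 2343 to 3130 CPM, the MYb71 L2 libraries 2539 to 4690, the MYb65 L2 libraries 3767 to 3851 and the Mix L2 libraries 3024 to 4338. The part of intestinal content in the lipl differences was not tested. Of the other marker lists (germline, sperm, body wall muscle, pharynx, epidermis, neurons and coelomocytes), no gene was called on any food except 2 of 8 sperm genes on MYb65 (msp-10 and gsp-3), and these were at 1.82 and 1.78 and not called (adjusted p = 0.0519 and 0.0648) without OP50 Ad1 replicate 3.

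No member was called between the isolates. Between MYb71 and MYb65, 0 of 8 members were called by edgeR (0 at an unadjusted p under 0.05, and 0 called by DESeq2), beside 0.136% of all genes. The difference was 0.13 for lipl-4 with a 95% interval of -0.35 to 0.62, 0.01 for lipl-5 (-0.32 to 0.33) and 0.15 for lipl-2 (-0.42 to 0.72), all in log2. The lipl-1 interval, from -0.01 to 0.78 around 0.39, included 0. Mix differed from the mean of MYb71 and MYb65 in 0 of 8 members (0 at an unadjusted p under 0.05, and 0 by DESeq2), beside 0.0163% of all genes, with intervals of -0.55 to 0.36 for lipl-4 and -0.25 to 0.34 for lipl-5.

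The lipl-4 lipase, linked in worms to lysosomal signalling and long life, was the member with the lowest OP50 level among those that changed, and its values separated from OP50 at most stages. At L3 the OP50 libraries held 0.356, 0.440 and 0.362 CPM, against 2.32, 3.24, 1.43 and 2.96 on MYb71, 2.40, 1.96 and 1.14 on MYb65 and 1.99, 1.34 and 1.31 on Mix. Every library on the other foods lay above every OP50 library, 6.44-fold, 4.75-fold and 4.01-fold higher in the mean. Within L3 the log2 fold change was 2.82 on MYb71 (SE 0.35, adjusted p = 0.0022), 2.31 on MYb65 (SE 0.36, adjusted p = 0.011) and 2.05 on Mix (SE 0.37, adjusted p = 0.026) by edgeR, where 0.146%, 0.236% and 0.132% of genes were called higher. The MYb71 call at L3 held without any 1 library. That on MYb65 was lost without OP50 replicate 1 or MYb65 replicate 1 or 2 (adjusted p = 0.0545 to 0.0734), and that on Mix without any OP50 or Mix library or MYb65 replicate 2 (0.0502 to 0.1503). With the library labelled OP50 L3 replicate 3 put back, at 1.42 CPM, none of the 3 was called (0.219 to 0.379), and with the 24 groups in a single fit the MYb65 and Mix values were not (0.0786 and 0.178).

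At L4 the lipl-4 means stood further apart than at L3, a difference between stages that was not tested. The OP50 libraries held 0.120, 0.563 and 0.137 CPM (2 to 15 counts), against 4.45, 4.78, 2.40 and 3.00 on MYb71, 3.07, 6.19 and 1.51 on MYb65 and 4.27, 2.01 and 6.03 on Mix. No library on the other foods fell within the OP50 range, and the means were 13.4-fold, 13.1-fold and 15.02-fold higher. The log2 fold changes of 3.65, 3.66 and 3.85 were not called by edgeR within this stage (adjusted p = 0.108, 0.173 and 0.153), where few genes were called higher at all (0.0315%, 0.0252% and 0.0189%). They were called by DESeq2 (adjusted p = 2.78e-05, 0.000198 and 5.59e-05) and with the 24 groups in a single edgeR fit (0.000407, 0.00104 and 0.000577).

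In day-1 adults lipl-4 reached its highest values. The OP50 libraries held 0.343, 0.509 and 1.37 CPM, those on MYb71 6.59, 7.83, 7.43 and 8.33, those on MYb65 10.5, 3.03, 0.888 and 9.72 and those on Mix 2.68, 1.42 and 9.90. MYb71 and Mix lay wholly above OP50, 10.2-fold and 6.29-fold in the mean, whereas MYb65 replicate 3 at 0.888 fell inside the OP50 range. The fitted values of 3.36, 3.06 and 2.68 were not called within Ad1 (edgeR adjusted p = 0.332, 0.701 and 1), where the other genes too gave almost no calls (0%, 0.00644% and 0%). In the single fit of 24 groups all 3 were called (0.000593, 0.00314 and 0.03), and by DESeq2 those on MYb71 and MYb65 (0.00351 and 0.0211).

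In older adults the OP50 libraries held more lipl-4 than most younger ones did. At Ad3 the OP50 libraries held 2.07, 1.06 and 3.16 CPM of lipl-4, against 4.14, 5.65, 3.39 and 3.95 on MYb71, 3.37, 4.06, 2.88 and 4.33 on MYb65 and 4.86, 6.32 and 4.66 on Mix. MYb71 and Mix did not overlap OP50 there and MYb65 did. At Ad7 the OP50 libraries held 1.25, 1.14 and 1.39 CPM, against 3.95, 3.14, 3.06 and 4.13 on MYb71, 2.38, 2.66, 1.96 and 2.64 on MYb65 and 2.46, 3.13 and 3.96 on Mix. All 11 libraries on the other foods lay above the 3 on OP50, 2.83-fold, 1.91-fold and 2.53-fold in the mean. Within Ad7 lipl-4 was called on MYb71 (log2 1.5, SE 0.21, edgeR adjusted p = 0.0021) and Mix (1.32, SE 0.22, adjusted p = 0.011) but not on MYb65 (0.94, SE 0.21, adjusted p = 0.0618), beside 0.242%, 0.242% and 0.363% of genes called higher. The Mix call was lost without OP50 replicate 2 or Mix replicate 2 or 3 (adjusted p = 0.0524 to 0.0642), and MYb65 was called without Mix replicate 1 (0.048) and by DESeq2 (0.0314). In the single fit of 24 groups neither Ad7 call was kept (adjusted p = 1). At Ad3, where 0.295%, 0.309% and 0.19% of genes were called higher, lipl-4 was called on MYb71 and Mix without OP50 replicate 3 (1.47, adjusted p = 0.0359, and 1.77, adjusted p = 0.0146), and on Mix by DESeq2 (0.00988).

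At L2, the youngest stage, lipl-4 was near its limit of detection on OP50, at 0.325, 0.787 and 0.0568 CPM (1 to 15 counts). Values on MYb71 (0.963, 0.722, 0.309 and 0.312 CPM) and Mix (1.46, 0.154 and 0.527) overlapped those, and the 2 MYb65 libraries, at 1.79 and 1.15, did not. No L2 difference of lipl-4 was called.

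**Figure D2:**
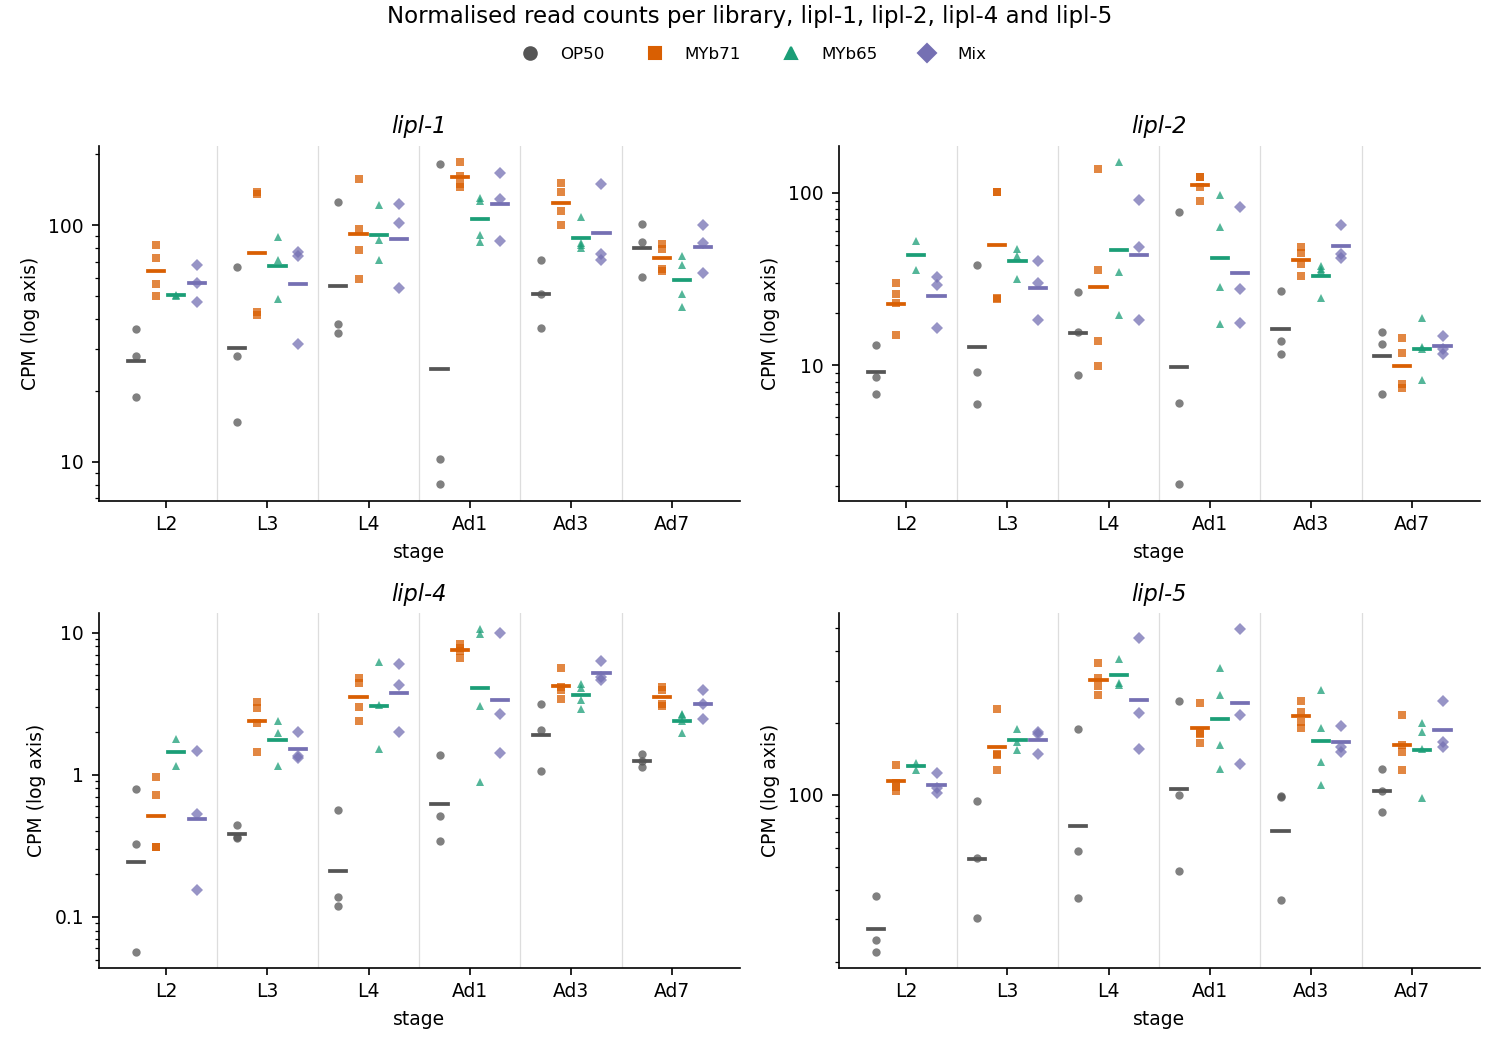
CPM (vertical axes, log scale) of lipl-1, lipl-2, lipl-4 and lipl-5 at each stage (horizontal axis) in the 80 libraries, coloured by food, with horizontal bars at the geometric mean of each group. At L3 and L4 every lipl-4 library on another food lies above the OP50 libraries, which reach 0.440 and 0.563 CPM, and at Ad1 the OP50 libraries of lipl-1 are split between 8.01 and 10.3 on the low side and 181 on the high side.

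The most abundant member, lipl-5, belongs to the lipl genes known to respond to fasting, and it was called on all 3 foods within L2. At L2 the OP50 libraries held 21.98, 24.7 and 37.8 CPM, against 108, 112, 103.8 and 133 on MYb71, 127 and 136 on MYb65 and 102, 106.5 and 123 on Mix. The lowest library on another food was 102 and the highest on OP50 37.8, so the groups did not overlap, with means 4.05-fold, 4.67-fold and 3.92-fold higher. Within L2 lipl-5 was called on MYb71 (log2 2.07, SE 0.24, edgeR adjusted p = 0.00083), MYb65 (2.20, SE 0.26, adjusted p = 0.00156) and Mix (1.99, SE 0.24, adjusted p = 0.00183), where 0.63%, 0.349% and 0.194% of genes were called higher. These 3 calls held without any 1 of the L2 libraries used, and were lost with the library labelled OP50 L2 replicate 3, at 74.7 CPM, put back (adjusted p = 0.199, 0.521 and 0.410).

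At L3 and L4 a single OP50 library decided most calls of lipl-5. At L3 the OP50 libraries held 30.5, 54.4 and 93.9 CPM, against 148, 228, 146 and 127 on MYb71, 154, 189 and 166 on MYb65 and 179, 184 and 149 on Mix, with no overlap. The log2 values of 1.53, 1.52 and 1.52 were not called by edgeR (adjusted p = 0.087, 0.104 and 0.112) and were called without OP50 replicate 4, the highest of the 3 (2.10, 2.09 and 2.09, adjusted p = 0.00731, 0.00917 and 0.0104) and by DESeq2 (0.00166, 0.0044 and 0.005). At L4 the OP50 libraries held 37.0, 57.9 and 189 CPM, against 308, 358, 262 and 286 on MYb71, 371, 294 and 288 on MYb65 and 220.4, 452 and 155 on Mix. Mix overlapped OP50 at L4 and the isolates did not. Without OP50 replicate 3 at L4 lipl-5 was called on MYb71 (2.62, adjusted p = 0.0279) and MYb65 (2.68, adjusted p = 0.0363), as it was in the single fit of 24 groups (0.0286 and 0.0374), and on Mix no library left out brought a call.

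Among adults, lipl-5 overlapped OP50 on every food at Ad1, where the OP50 libraries held 47.8, 99.2 and 248 CPM and the others 128 to 493. At Ad3 the OP50 libraries held 36.0, 97.5 and 98.8 CPM and all 11 others lay above, between 109.6 and 273. At Ad7 the OP50 libraries held 128, 84.5 and 103.85 CPM, and Mix, at 166, 247 and 158, was the food whose libraries all lay above. No adult difference of lipl-5 was called by edgeR, and the Ad3 values of 1.49 on MYb71 and 1.21 on MYb65 were called by DESeq2 (adjusted p = 0.00388 and 0.0425).

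lipl-1, a lysosomal lipase induced by fasting through HLH-30, lay wholly above OP50 on every food at L2 and Ad3. At L2 the OP50 libraries held 28.1, 18.7 and 36.4 CPM, against 56.3, 82.7, 50.2 and 72.6 on MYb71, 50.9 and 50.2 on MYb65 and 57.0, 47.5 and 67.7 on Mix. All libraries on the other foods lay above OP50. lipl-1 was called within L2 on MYb71 (log2 1.29, SE 0.26, edgeR adjusted p = 0.032). That call was lost without each of OP50 replicates 1 and 2, MYb71 replicates 2 and 3, MYb65 replicates 1 and 2 and Mix replicate 1 (adjusted p = 0.0514 to 0.151), with the left-out library OP50 L2 replicate 3 put back (0.131) and in the single fit of 24 groups (0.523), and without OP50 replicate 4 it was called on Mix (1.40, adjusted p = 0.0295).

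At Ad1 the lipl-1 values on OP50 were split. OP50 replicates 1 and 2 held 8.01 and 10.3 CPM and replicate 3 held 181, against 149, 145, 185 and 162 on MYb71, 131, 85.0, 91.2 and 127 on MYb65 and 86.0, 129 and 167 on Mix. All 11 libraries on the other foods lay above the first pair, and 10 of them lay below the third, so the groups overlapped. With all 3 OP50 libraries the log2 values were 1.28, 0.75 and 0.94 and none was called, and without replicate 3 they were 4.06, 3.54 and 3.73 (edgeR adjusted p = 0.000137, 0.000292 and 0.000282). Which of the OP50 libraries represents that food at Ad1 was not tested.

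At Ad3 lipl-1 held 36.9, 51.05 and 71.05 CPM on OP50, against 100.4, 114, 151 and 138 on MYb71, 79.8, 82.8, 108 and 84.3 on MYb65 and 71.19, 75.7 and 149 on Mix. Every library on the other foods lay above OP50, by the narrowest margin on Mix (71.19 against 71.05), with means 2.38-fold, 1.68-fold and 1.86-fold higher. None of these was called by edgeR (log2 1.27, adjusted p = 0.111 on MYb71). On MYb71 it was called by DESeq2 (1.25, adjusted p = 0.000305), with the replicate number as a block (1.29, adjusted p = 0.00593), and without OP50 replicate 3 (1.54, adjusted p = 0.0485) or Mix replicate 3 (1.26, adjusted p = 0.0426). At Ad7 the order was not kept: OP50 held 101, 84.8 and 60.5 CPM, inside or above the 45.1 to 100.02 of the other foods.

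lipl-2, a further acid lipase of the family, had a pattern like that of lipl-1. At L2 the OP50 libraries held 6.84, 8.55 and 13.2 CPM, against 25.9, 30.1, 14.99 and 22.9 on MYb71, 35.9 and 52.8 on MYb65 and 29.3, 16.5 and 32.6 on Mix. The groups did not overlap, and lipl-2 was called within L2 on MYb65 (log2 2.21, SE 0.38, edgeR adjusted p = 0.0197). Without OP50 replicate 1 or 2 or either MYb65 library that call was lost (adjusted p = 0.0777 to 0.257), as it was with OP50 L2 replicate 3 put back (0.0751) and in the single fit of 24 groups (0.758), and without OP50 replicate 4 lipl-2 was called on MYb71 (1.72, adjusted p = 0.0325) and Mix (1.86, adjusted p = 0.0356).

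At Ad1 lipl-2 was split on OP50 in the way of lipl-1, with 6.01, 2.04 and 77.5 CPM, against 124, 89.4, 123 and 108 on MYb71, 97.6, 17.4, 28.5 and 63.2 on MYb65 and 17.6, 27.6 and 82.4 on Mix. The MYb71 libraries alone lay wholly above OP50, and without OP50 replicate 3 the MYb71 difference was 4.68 (edgeR adjusted p = 0.0276). At Ad3 OP50 held 11.6, 13.9 and 27.1 CPM, against 38.4, 48.6, 32.8 and 44.5 on MYb71, 24.5, 36.0, 37.5 and 35.0 on MYb65 and 44.4, 41.6 and 64.7 on Mix. MYb71 and Mix lay wholly above OP50 and MYb65 did not, and without OP50 replicate 3 at Ad3 all 3 foods were called (1.72, 1.41 and 2.02, adjusted p = 0.00427, 0.011 and 0.00238). At Ad7 OP50 held 15.7, 13.3 and 6.83 CPM and the other 11 libraries 7.41 to 18.7, which overlapped.

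In total, within stages, edgeR called 4 of 43 tests of a member at a stage on MYb71, 3 of 43 on MYb65 and 3 of 43 on Mix, all higher, beside 0.22%, 0.209% and 0.126% of all gene and stage pairs. A member was tested at a stage when it passed the filter on low counts there, which 7 of 8 did at each stage and all 8 did at Ad7. DESeq2 called 11, 9 and 9, and it also called more of all gene and stage pairs, 1.88%, 1.46% and 1.19% in either direction against 0.578%, 0.477% and 0.374% by edgeR. Once both left-out OP50 libraries were put back the counts were 1, 0 and 1, beside 0.281%, 0.254% and 0.185% of all pairs. Without OP50 replicate 3 at Ad3 the count was 7 on MYb71 and 5 on Mix, and without OP50 replicate 4 at L2 it was 5 on Mix. No share of all pairs stands beside these last counts, so nothing particular to the members is read from them.

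**Figure D3:**
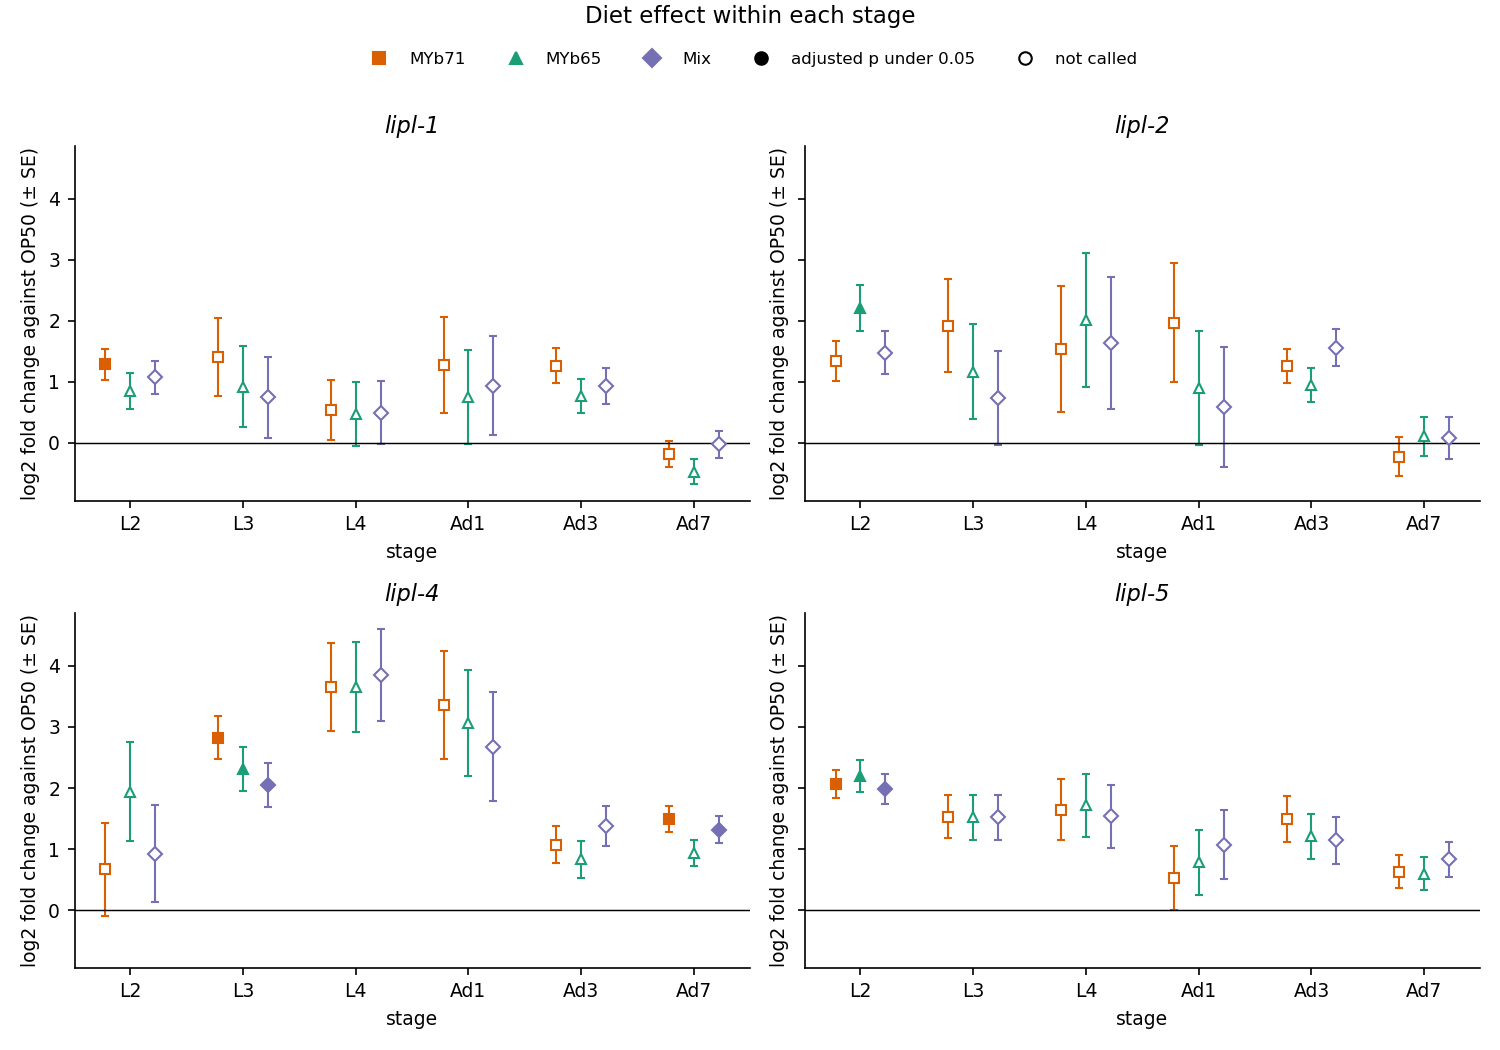
Log2 fold change against OP50 (vertical axes, ± SE) of lipl-1, lipl-2, lipl-4 and lipl-5 within each stage (horizontal axis), with filled symbols for an adjusted p under 0.05. lipl-4 stands highest at L4 (3.65, 3.66 and 3.85) with wide errors and is called at L3 and Ad7, and lipl-5 is called at L2 (2.07, 2.20 and 1.99), while lipl-1 and lipl-2 at Ad7 lie between -0.47 and 0.11.

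Counted by separation alone, lipl-4 lay wholly above OP50 at 5 stages on MYb71, 4 on MYb65 and 5 on Mix, and lipl-5 at 4 stages on each food. The same was seen for lipl-1 at 2, 2 and 2 stages and for lipl-2 at 3, 1 and 2. Among all genes the share that lay wholly above OP50 was 3.13%, 13.1% and 4.16% at L2, 2.16%, 7.06% and 5.21% at L3 and 1.46%, 1.44% and 1.61% at L4 on MYb71, MYb65 and Mix, and 2.76%, 1.3% and 2.08% at Ad1, 4.7%, 3.71% and 6.3% at Ad3 and 4.3%, 4.51% and 8.08% at Ad7. Of the other 4 members, lipl-6 at L3 on MYb65 and lipl-3 at Ad3 on Mix lay wholly above OP50, and lipl-3 at L3 on Mix (0.885, 0.390 and 0.553 CPM against 1.16, 1.13 and 3.67) lay wholly below.

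Whether the food difference itself changed between larvae and adults was tested by the mean difference at L2, L3 and L4 minus that at Ad1, Ad3 and Ad7. None of the 8 members was called on any food by edgeR or DESeq2, and lipl-8, with 0 counts in all libraries at L3, could not be estimated there, beside 0.501%, 0.392% and 0.163% of all genes. At an unadjusted p under 0.05 there was 1 member on MYb71 (lipl-5), 2 on MYb65 (lipl-4 and lipl-5) and 0 on Mix.

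lipl-3, a fasting-induced lipase under HLH-30 and MXL-3, varied more between replicates of a group than between foods. At L3 the MYb71 libraries held 0.223, 23.2, 0.256 and 23.6 CPM, and OP50 held 1.16, 1.13 and 3.67. At Ad1 the MYb65 libraries ran from 0.152 to 56.7 CPM and OP50 held 2.55, 1.85 and 51.3. Replicates within groups held 55.2% of the variance of its log2 CPM, stage 34.5% and the food effect common to all stages 2.46%. Its log2 fold changes of 0.37, -0.36 and 0.00 were not called, with 95% intervals of -0.75 to 1.48, -1.48 to 0.77 and -1.18 to 1.18.

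lipl-6 was high at L2 and L3 and low from L4 on. Its mean was 8.18 ± 4.25 CPM at L2 (SD, n = 12) and 8.56 ± 3.36 at L3 (n = 13), then 0.961 ± 0.859 at L4 (n = 13), 1.35 ± 1.01 at Ad1, 0.669 ± 0.437 at Ad3 and 0.303 ± 0.209 at Ad7 (n = 14 each), with 82.6% of its variance between stages and 0.0939% common to food. The L2 and L3 libraries, at 3.71 to 20.4 CPM, lay above the L4 libraries, which reached 2.82. Against OP50 its log2 values were -0.22, -0.34 and -0.01, none called.

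lipl-7 had its lowest mean at L3, with 65.6% of its variance between stages and 0.981% common to food. Its mean was 18.5 ± 3.04 CPM at L2 (SD, n = 12), 10.7 ± 3.54 at L3 (n = 13), 17.9 ± 2.60 at L4 (n = 13), 20.5 ± 2.08 at Ad1, 18.04 ± 2.64 at Ad3 and 19.6 ± 2.11 at Ad7 (n = 14 each). The fitted food differences were -0.02, -0.03 and -0.12 in log2, with 95% intervals of -0.18 to 0.14, -0.20 to 0.14 and -0.29 to 0.05, so changes of the size seen for lipl-4 or lipl-5 lay outside them.

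lipl-8 was barely detected. It had 0 counts in 52 of 80 libraries, among them all 13 at L3, where a count of 0 allows up to 0.00955 CPM over the stage (counting error only), and at most 18 counts (0.757 CPM). At Ad7 9 of 14 libraries had at least 1 count and the mean was 0.240 ± 0.258 CPM (SD, n = 14). At this depth no food difference was detectable, with log2 intervals of -1.39 to 1.21 on MYb71, -1.22 to 1.44 on MYb65 and -1.83 to 1.26 on Mix.

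**Figure D4:**
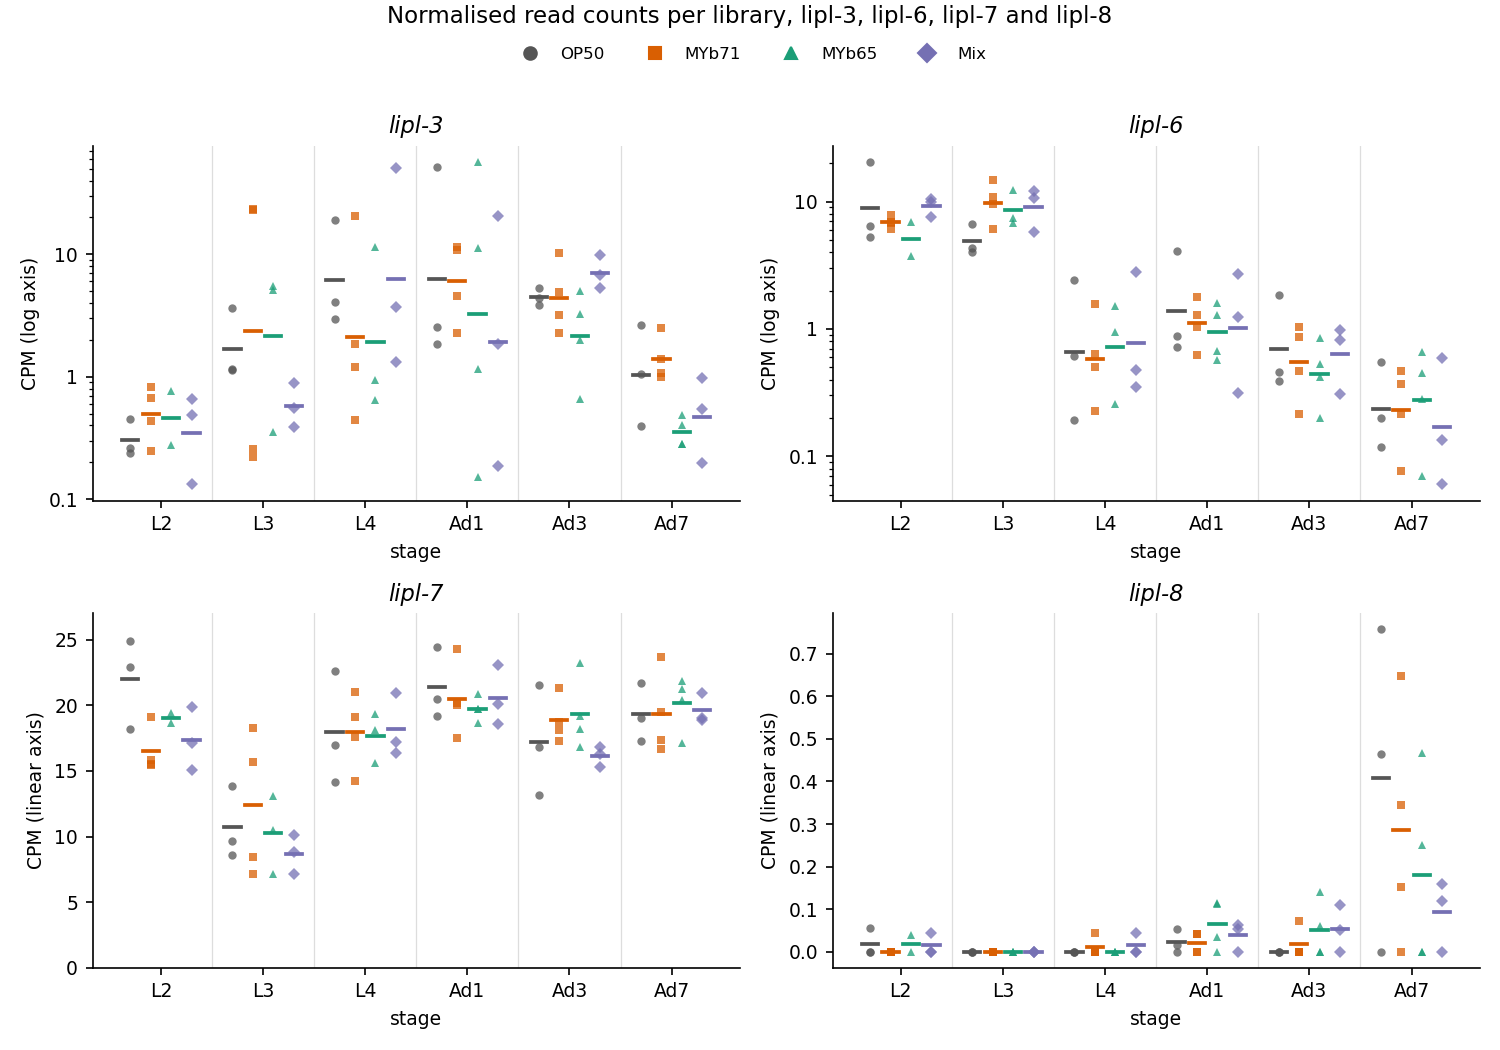
CPM (vertical axes, log scale for lipl-3 and lipl-6, linear from 0 for lipl-7 and lipl-8) of the 4 members not called on any food, by stage (horizontal axis) and food in the 80 libraries, with horizontal bars at the group means (geometric on log axes). lipl-3 spreads from 0.223 to 23.6 within the MYb71 L3 group, lipl-6 drops from a mean of 8.56 at L3 to 0.961 at L4, lipl-7 dips at L3 to 10.7 and lipl-8 reaches its highest value, 0.757, at Ad7.

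At some step 7 of the 8 members were called, all but lipl-1, but a single step called up to 82.6% of all genes. The share of all genes called at any step was not counted, so nothing particular to the members is read from this count. Between consecutive stages 15 of 40 tests were called, a lower share than the 56.9% of all gene and step pairs. They include the lipl-8 step, which is limited as given below. From L2 to L3 lipl-3 rose by 3.35 on the log2 scale (SE 0.79), lipl-4 by 0.99 (SE 0.35) and lipl-5 by 0.63 (SE 0.21), and lipl-7 fell by 0.80 (SE 0.10), where 58.3% of genes were called. From L3 to L4 lipl-4 rose by 0.77, lipl-5 by 0.81 and lipl-7 by 0.76, and lipl-6 fell by 3.16 (SE 0.35), beside 82.6% of genes.

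From L4 to Ad1 lipl-4 alone was called, higher by 0.77 (SE 0.31, beside 65% of genes). From Ad1 to Ad3 lipl-3 fell by 1.53 and lipl-6 by 0.97 (59% of genes), while the median over all genes was -0.25. Neither was called without OP50 Ad1 replicate 3, at -1.06 and -0.73 (edgeR adjusted p = 0.162 and 0.0599). From Ad3 to Ad7 lipl-2 fell by 1.42 (SE 0.36), lipl-3 by 2.35 (SE 0.69) and lipl-6 by 1.08 (SE 0.38), beside 19.6% of genes. lipl-8 was called higher by 2.93 (SE 0.65), but outside Ad7 no library held more than 3 counts of it. It passed the low-count filter only through the Ad7 libraries, where it is highest, so that call is no evidence of a rise. Without replicate 3 of every group 10 of the 40 steps were called, a count with no share of all pairs beside it. The lipl-4 steps from L3 to L4 and from L4 to Ad1, the lipl-3 step from Ad1 to Ad3 and the lipl-6 step from Ad3 to Ad7 were each lost under several alternatives. Leaving out 1 replicate number also ended the L2 to L3 rises of lipl-4 (number 4, adjusted p = 0.0754) and lipl-5 (number 2, 0.169), the Ad3 to Ad7 falls of lipl-2 (number 3, 0.0757) and lipl-3 (number 2, 0.0982), and the Ad1 to Ad3 fall of lipl-6 (number 3, 0.284).

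The 4 members called with food were picked out by values above OP50, so some likeness of their food patterns follows from that choice. After the mean of the 4 foods was subtracted at each stage, Pearson's r over the 24 group means of log2 CPM ranged over their 6 pairs from 0.746 for lipl-1 and lipl-5 to 0.879 for lipl-1 and lipl-2. Over the deviations of the 80 libraries from their own group means, r was 0.837 for lipl-1 and lipl-2, 0.753 for lipl-2 and lipl-3 and 0.0432 for lipl-4 and lipl-5. The genes of a pair share each library and its depth, and these values carry no test. The food effect common to all stages held 45% of the variance of lipl-5, 33.4% of lipl-4, 25.7% of lipl-1 and 21.4% of lipl-2.

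Of 9675 or 9676 genes with a mean log2 CPM of at least 2, those nearest to each member by the same food pattern were ranked by r over the 24 means. Nearest to lipl-1 were the acid ceramidase genes asah-1 (0.944) and asah-2 (0.905) and the C-type lectin gene clec-166 (0.885). Nearest to lipl-2 were nceh-1 (0.957), the saposin-like gene spp-2 (0.949) and bgal-2 (0.947). lipl-5 was followed most closely by the glucocerebrosidase gene gba-4 (0.958), the nuclear hormone receptor gene nhr-8 (0.955) and F32H5.1 (0.936), and lipl-4 by Y6G8.2 (0.95), Y20C6A.1 (0.936) and F47H4.2 (0.917). By the group means without subtraction, lipl-3 stood nearest to the acyl-CoA synthetase gene acs-2 (0.892) and to pck-2 (0.791), and lipl-6 to F44E2.4 (0.99).

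Other genes of the lysosome and of lipid handling were read from named lists. In the list of lysosomal membrane, transport and lipid genes, 7 of 28 were called higher on MYb71, 6 on MYb65 and 5 on Mix, and 0 lower, beside the 1.76%, 1.8% and 1.13% of all genes given above. Its median log2 fold change was 0.12, 0.13 and 0.08, beside -0.03, -0.00 and -0.03 over all genes. Called on all 3 foods were gba-4 (1.18, 1.37 and 1.26), asah-2 (1.01, 0.91 and 0.85), the alpha-glucosidase gene aagr-1 (0.80, 0.70 and 0.76), the nuclease gene nuc-1 (0.51, 0.36 and 0.35) and the Spinster-like transporter gene spin-3 (0.70, 0.57 and 0.67). Ceramidase asah-1 (0.67) and the nuclease gene crn-6 (0.38) were called on MYb71, and gba-2 (0.94) on MYb65, the last of which was not called without OP50 Ad1 replicate 3 (0.90, adjusted p = 0.0635). The nuc-1 calls on MYb65 and Mix did not hold when every replicate 2 was left out (adjusted p = 0.330 and 0.329) or when Ad3 was (0.0916 and 0.110).

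Of these genes gba-4 and asah-2, chosen after their values were seen, were called within L2 as lipl-5 was, and aagr-1 and nuc-1 were not (adjusted p = 0.0964 to 0.609). At L2 gba-4 held 6.58, 10.5 and 9.83 CPM on OP50, against 24.0, 25.96, 21.6 and 26.3 on MYb71, 33.1 and 37.7 on MYb65 and 25.6, 24.3 and 22.5 on Mix. These groups did not overlap, and gba-4 was called on all 3 foods within L2 (log2 1.51, 1.98 and 1.46, edgeR adjusted p = 0.00142, 0.000715 and 0.00316). asah-2 was called there as well (1.14, 1.16 and 1.08, adjusted p = 0.00553, 0.0179 and 0.0141).

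In either direction 4.69%, 3.52% and 2.92% of all genes were called on MYb71, MYb65 and Mix, so few calls fall in a short list at that share, and nothing particular is read from the next counts. V-ATPase subunits, which acidify the lysosome, gave 0 of 21 calls on every food, and autophagy genes 0 of 26. The lipase-related lips genes gave 0 of 14, since lips-4, lips-14 and lips-16 of the 17 listed were not found by symbol. The vitellogenins, the yolk proteins that carry intestinal lipid, gave 0 of 6. Among regulators of lipolysis 1 of 10 was called, nhr-8, at 0.51, 0.55 and 0.52 (adjusted p = 0.0022, 0.00176 and 0.00438). Its calls were lost on MYb71 and MYb65 without replicate 1 of every group (0.0747 and 0.333) and on Mix without replicate 2, L2 or L3 (0.0526 to 0.149). hlh-30 stood at 0.21, 0.12 and 0.23 and mxl-3 at -0.27, -0.29 and -0.33, not called. The transcript of daf-16, the FOXO factor upstream of lipl-4 in long-lived germline-less worms, stood at 0.18, 0.14 and 0.19, not called.

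Of 5 intracellular triglyceride lipases and lipid droplet factors, the fasting-induced lipase gene fil-1 was called on MYb71 (1.18, adjusted p = 0.0382) and Mix (2.03, adjusted p = 0.000175) and stood at 1.09 on MYb65 (adjusted p = 0.0852), and fil-2 was called on Mix (1.75, adjusted p = 0.000468). Without replicate 1 or 2 of every group the MYb71 call of fil-1 (adjusted p = 0.544 and 0.485) and the Mix call of fil-2 (0.0802 and 0.0918) were lost, as was that of fil-1 on MYb71 without L2, L3, L4, Ad1 or Ad3 (0.061 to 0.19), and without OP50 Ad1 replicate 3 fil-1 was called on MYb65 (1.39, adjusted p = 0.0151). The triglyceride lipase genes atgl-1 and hosl-1 and the droplet gene lid-1 were not called on any food.

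Of the lipid-binding protein genes lbp-8, whose protein carries the lipid signal that LIPL-4 gives rise to, was lower on every food in the model over all stages. Of 9 lbp genes, 1 was called lower on MYb71 and 2 each on MYb65 and Mix, beside 2.93%, 1.71% and 1.79% of all genes, and 0 higher. lbp-8 fell by 3.16 on MYb71 (SE 0.39, adjusted p = 2.18e-09), by 2.71 on MYb65 (SE 0.39, adjusted p = 2.85e-07) and by 2.87 on Mix (SE 0.42, adjusted p = 3.85e-07) on the log2 scale, by edgeR, and kept these calls under all alternatives run. At Ad7 it held 1.41, 3.28 and 0.995 CPM on OP50 and 0.153 to 0.420 in the 11 other libraries, with no overlap. It was called within that stage on all 3 foods (-3.01, -2.52 and -2.76), where 60, 52 and 38 of 14052 genes were called lower. At L3 it held 1.25, 1.47 and 1.18 CPM on OP50, above the 0 to 0.376 of the others. It was not called there (edgeR adjusted p = 0.112, 0.235 and 0.216), nor within L2, L4 or Ad1. At L2 the log2 values were -0.32, -1.15 and -0.51. OP50, at 0.368 to 0.739 CPM, overlapped MYb71 (0.144 to 0.748) and Mix there, and MYb65 (0.199 to 0.268) lay below. Some libraries on other foods held 0 CPM at L3, Ad1 and Ad3, so lbp-8 was near its limit of detection. OP50 Ad3 replicate 3, at 0.0916 CPM beside 2.81 and 3.30, was the low exception among adults together with OP50 Ad1 replicate 3 (0.106 beside 5.22 and 2.83). The second call, lbp-1, was at -0.46 on MYb65 and -0.40 on Mix and was lost in several of the runs without a replicate number or a stage (adjusted p up to 0.155 and 0.483).

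**Figure D5:**
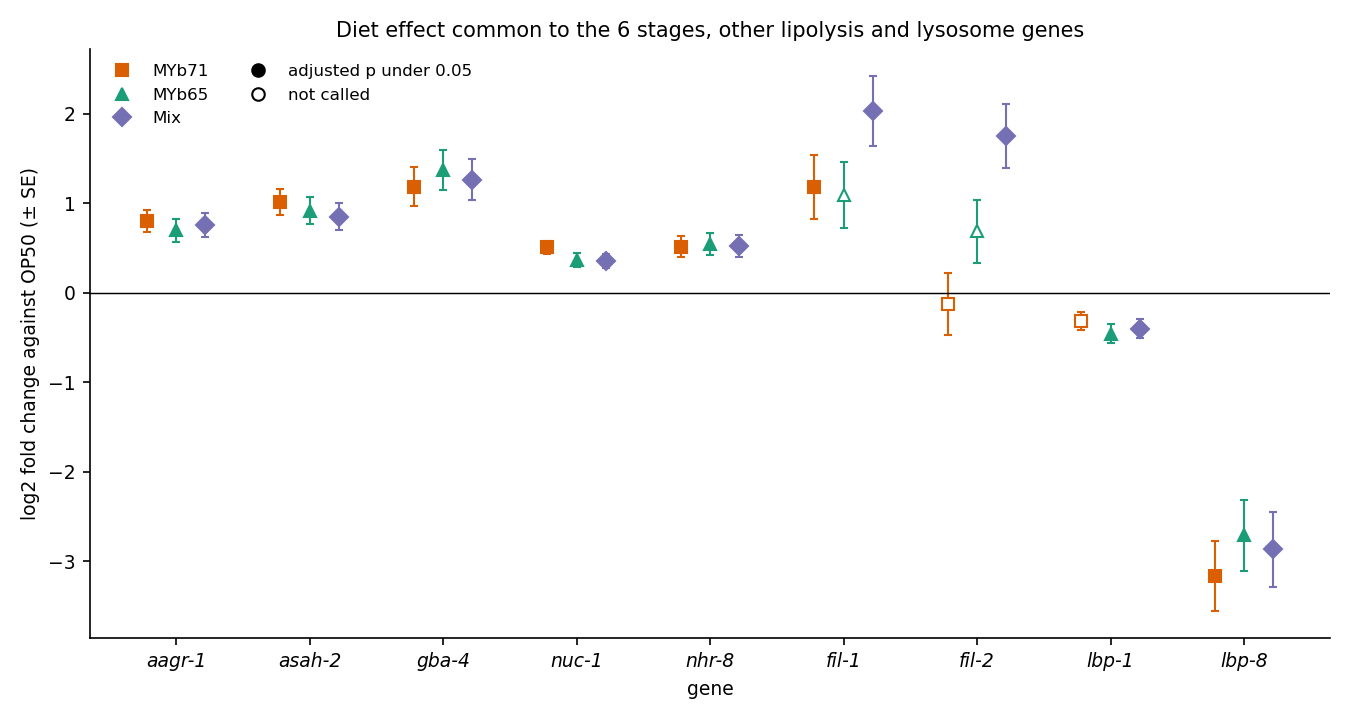
Log2 fold change against OP50 (vertical axis, ± SE) across stages of the named genes of lysosomal function, lipolysis and lipid binding (horizontal axis) on MYb71, MYb65 and Mix, with filled symbols for an adjusted p under 0.05. gba-4, asah-2, aagr-1, nuc-1 and nhr-8 lie above 0 on each food, and lbp-8 lies lowest at -3.16, -2.71 and -2.87.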

How the data were processed

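RNA of whole N2 worms (TruSeq libraries) was read from a table of raw counts per gene deposited by the authors, who trimmed reads with Trimmomatic, aligned them with STAR 2.5.3a and counted with HTSeq, as their methods and the submitters' notes state. The sources used here do not state whether counting used strand, so reads of lipl-4 and its opposite-strand neighbours cannot be told apart. The labels name the second isolate MYb65, whereas the paper describes MYb237. Mix is described only by its name. Of 82 libraries, 80 were used, since 2 libraries labelled OP50 L2 and L3 stood closest to adults. A pair of MYb65 libraries whose titles and time points differ was placed by time point. The table held 0 per-sample columns that were not used. Gene positions came from Ensembl release 115, and symbols matched 43693 of 46748 identifiers.

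Counts were filtered (filterByExpr, minimum count 10, minimum total 15, share 0.7), scaled by TMM and tested with edgeR 4.0.16 (robust quasi-likelihood, R 4.3.3), with Benjamini-Hochberg adjustment over all genes of a contrast and a threshold of 0.05. Adjusted p-values above 0.99 are given as 1. Models were stage plus diet over all libraries, diet within each stage, and 24 groups for the larval minus adult difference. CPM uses the TMM-scaled library totals, and log2 CPM for the correlations and variance shares adds a prior count of 2. Alternatives were all 82 libraries, 71 libraries without replicate 3 of groups of 4, the relative log expression (RLE) scaling, no filter, DESeq2 1.42.0, the replicate number as a block, placement by title, a single fit of 24 groups, and leaving out replicates, stages and single libraries. Same-numbered libraries deviated together in every pair (3 pairs, each r over 0.1) in 5 of 18 comparisons within stages, MYb71 at L2, L3 and Ad1 and MYb65 at L4 and Ad7 (r from 0.121 to 0.665), and not in the others (r from -0.71 to 0.728). The labels do not say what a number marks, and the methods say that treatments were run in parallel. The MYb71 tests across stages, within L2 and within Ad1 were checked on simulated counts with 200 changed genes. The other tests were not checked in this way. All 8 lipl genes are named. Of each list up to 4 genes with the smallest p among those called are named with full statistics, and the 3 nearest genes by correlation. Genes that were called but fell outside that rule, and the regulators, were named after their values were seen. The members and lists were chosen with earlier results of these data known. Replicates came from separate runs of the experiment as the methods state for 3 replicates, and for further libraries the p-values measure the spread between these samples.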

Additional observations from a re-analysis of the deposited data

Results flagged for a closer look

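Within groups of 4 libraries in which a member had a mean of at least 10 counts, 59 groups were searched for a library far from the other 3 by Dixon's ratio at the 95% level, and 3 were found, where chance gives about 1 in 20. lipl-3 on MYb71 at L4 held 20.8 CPM in replicate 2 and 0.445 to 1.85 in the other 3 libraries. Replicate 2 was also the highest at L4 on OP50 (19.1 beside 4.08 and 2.95) and MYb65 (11.4 beside 0.649 and 0.942), and on Mix replicate 3 was (50.3 beside 3.74 and 1.31). lipl-1 on MYb65 at Ad3 held 108 CPM in replicate 3 beside 79.8 to 84.3. lipl-7 on MYb71 at L2 held 19.1 CPM in replicate 2 beside 15.5 to 15.8.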

How the results depend on the processing

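No call of a member reversed its direction under any alternative run. Of 4841 values recomputed for members and named genes, 4651 stayed on the same side of the threshold. Another 111 lost their call, 79 gained one and 0 calls reversed. The sign changed in 234 values, 0 of them for a result called in the main run. Across stages the count of members called on Mix was 4 of 8, against 2, under 4 alternatives. These were all 82 libraries, the replicate number as a block, and leaving out OP50 replicate 3 at Ad1 or at all of L4, Ad1, Ad3 and Ad7. The last pair was chosen after seeing the data. The share of all genes called on Mix in either direction was 16.7%, 2.77%, 3.63% and 4.51% there, against 2.92%. The replicate numbers did not pair the Mix libraries with those of OP50 at any stage. Leaving out each replicate number in turn gave 2 to 4 on MYb71, 2 to 4 on MYb65 and 2 on Mix, and 10 to 13 stage steps. Within stages, all 82 libraries gave 1, 0 and 1 calls and DESeq2 gave 11, 9 and 9 on MYb71, MYb65 and Mix, and leaving out each library gave 3 to 7, 2 to 4 and 2 to 5. The cause of these moves was not tested. No share of all genes stands beside the counts from leaving out a replicate number or a library, so nothing particular to the members is read from them. The replicate number as a block gave 5, 2 and 3 calls within stages, beside 0.658%, 0.451% and 0.365% of all gene and stage pairs in either direction. It changed no member's call in the 5 comparisons in which the numbers paired the libraries. Elsewhere within stages it ended the call of lipl-2 at L2 on MYb65 (adjusted p = 0.0501) and made lipl-1 called at Ad3 on MYb71 (0.00593).

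Depth limited lipl-4 on OP50 (1 to 101 counts) and lipl-8 (0 to 18 counts). The 0 counts between the isolates, for Mix and for larvae against adults held under all alternatives run.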
